A study of Mus musculus with 12 samples.

Results

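The 9 genes described here make, recycle, reduce or remove NAD, the cofactor that sirtuins consume: Nampt, Nmnat1, Nmnat3, Haao, Acmsd, Qprt, Nadsyn1, Nnmt and Nnt. They are listed by name as enzymes of NAD metabolism, and the list was made with earlier results of these samples known. All 9 were on the array, each with 1 probe set, among 19938 genes and 35557 probe sets. Expression was measured on Affymetrix arrays of total RNA from whole liver of 129Sv mice aged 12 weeks, all of which had been fasted for 24 h before death. The 4 groups were SIRT3 knockout mice (SIRT3KO) on a high-fat Western diet with 42% fat, onto which they were weaned, wild-type controls (SIRT3WT) on that diet, SIRT3 knockout mice on a standard diet, and wild-type controls on the standard diet. Each group had 3 arrays. The series compared expression between the diets in mice with and without SIRT3. How the knockout allele was made is not given in the labels, and the arrays of a group are labelled as replicates without naming the animals, so p-values measure the spread between these arrays.

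NAD can be built from tryptophan through the kynurenine pathway, from nicotinic acid through the Preiss-Handler route, or from nicotinamide and nicotinamide riboside through salvage, and the liver uses all of these routes. Sirtuins and PARPs split NAD and release nicotinamide, which is either salvaged by Nampt or methylated by Nnmt and lost. SIRT3 is a deacetylase of mitochondria that needs NAD for each reaction.

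All values are log2 expression, so a difference of 1 is a 2-fold change, and levels are compared between groups for 1 gene at a time. Array medians lay between 6.34 and 6.47. All 9 genes lay above 5.98, the 95th percentile of 1246 chemosensory receptor genes that served as a dim background. The mean of 8 hepatocyte markers was 13.43 to 13.58 on every array. Sirt3, the targeted gene, measured 8.92, 8.49 and 8.87 in high-fat knockout livers, against 9.29, 9.14 and 9.13 in high-fat wild-type livers. It measured 8.83, 8.94 and 8.95 in standard-diet knockout livers, against 8.97, 9.04 and 9.13 in standard-diet wild-type livers. Within each diet all knockout values were under all wild-type values, but the differences of -0.42 and -0.14 did not pass (limma, adjusted p = 0.9996 and 0.660). The files do not place these probes relative to the deleted part, so Sirt3 cannot check the genotype labels.

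The knockout livers differed from wild-type livers in none of the 9 genes at the threshold, an adjusted p under 0.05 over all genes. On the standard diet 0 of 9 were called by limma, where 0.00502% of all genes were called, and 1 of 9, Nnmt, had an unadjusted p under 0.05, as did 9.73% of all genes. On the high-fat diet 0 of 9 were called, where 0% of all genes were, and 0 of 9 had an unadjusted p under 0.05 against 2.86% of all genes. Averaged over diets 0 of 9 were called, against 0% of all genes, with 1 of 9 at an unadjusted p under 0.05 against 6.64%. The diet comparison gave calls, of Nnmt, Haao, Nmnat3 and Nnt. Averaged over genotypes 4 of 9 were called, 3 higher and 1 lower on the high-fat diet, where 18% of all genes were called, 10.3% higher and 7.69% lower. The same 4 of 9 had an unadjusted p under 0.05, against 32.4% of all genes. In bulk liver, fewer cells of a type and less RNA per cell cannot be told apart.

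A feature of the data bears on every diet difference below. The deposited values of the diets appear to come from separate normalization runs, since pairs of arrays of the same diet shared 2 to 31 identical values and pairs across diets 0 or 1. The chemosensory genes were called in 22.9% of cases in the diet comparison averaged over genotypes, against 17.6% of other genes. When an offset between runs with an SD of 0.214 per gene, estimated from those genes, was added to the error, 0 of the 9 genes kept a diet call. Few genes of any kind did: 9 of 19938 were called averaged over genotypes, 7 in the wild type and 5 in the knockout. The averaged differences of Haao, Nmnat3 and Nnt (0.23, 0.22 and 0.21) were about the size of that SD, so their calls could not have held. The chemosensory genes had a median level of 4.23, against 6.70 over all genes. Whether their offset holds for brighter genes was not tested. What part of a diet difference lies in the runs cannot be told apart from diet.

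**Figure D1:**
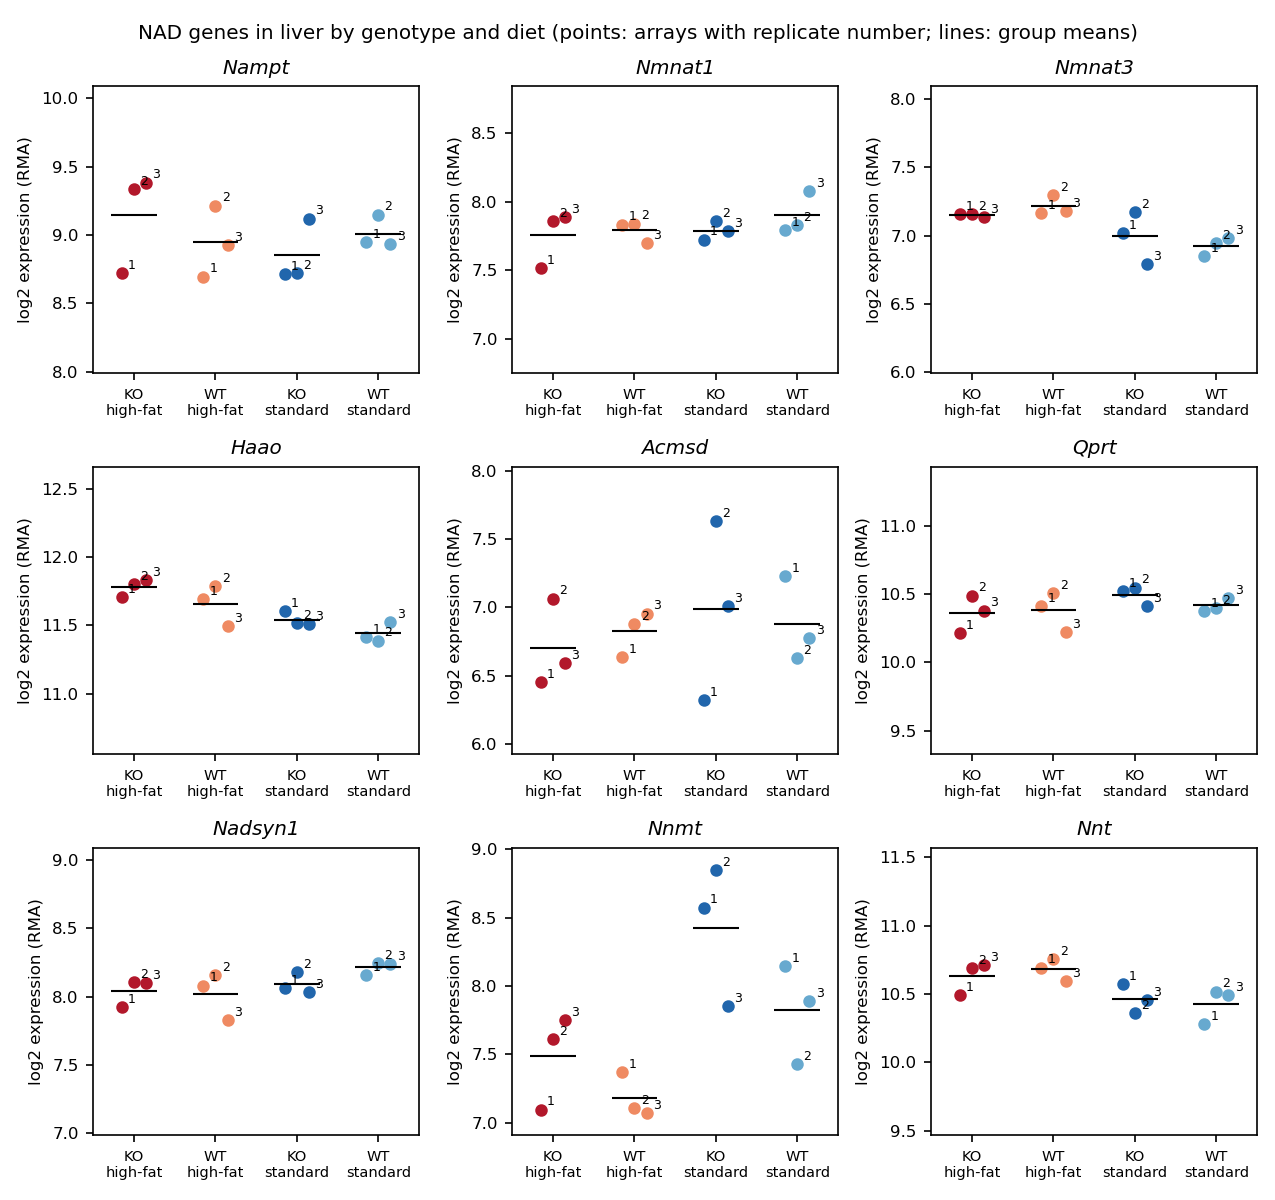
Log2 expression of the 9 genes on each of the 12 arrays, with 1 panel per gene, knockout left of wild type within each diet and all panels spanning the same number of log2 units. Points are arrays with their replicate number and lines are group means. Nnmt and Acmsd spread most within groups and Haao least (SD 0.0932), while over all 12 arrays Qprt spans the least (0.336 log2 units).

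Nicotinamide N-methyltransferase, encoded by Nnmt (probe set 10593219, chr9:48538002-48607655 in GRCm38.p6), methylates nicotinamide with S-adenosylmethionine and so removes it from salvage. Its level was 7.10, 7.61 and 7.75 in high-fat knockout livers, 7.37, 7.11 and 7.07 in high-fat wild-type livers, 8.57, 8.85 and 7.85 in standard-diet knockout livers, and 8.15, 7.43 and 7.89 in standard-diet wild-type livers. All high-fat arrays lay below all standard-diet arrays of the same genotype. The group means ran from standard-diet knockout (8.43) over standard-diet wild type (7.82) and high-fat knockout (7.49) to high-fat wild type (7.18), and each pair of neighbours in this order overlapped.

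Nnmt was the 1 gene of the 9 that passed in a diet comparison within a genotype. In the knockout it fell by 0.94 on the high-fat diet (SE 0.235, 95% interval -1.44 to -0.44), a 1.92-fold difference (limma, adjusted p = 0.0346). In that comparison 1 of 9 genes was called, lower, where 5.11% of all genes were called and 2.66% were lower, and 2 of 9 had an unadjusted p under 0.05 against 21.6%. In the wild type the difference was -0.64 (SE 0.235, 1.56-fold), which did not pass (limma, adjusted p = 0.123). No gene of the 9 was called in the wild type, where 5.99% of all genes were called, and 4 of 9 had an unadjusted p under 0.05 against 22.6% of all genes. The difference between the diet effects in knockout and wild type was -0.30 for Nnmt (SE 0.333, 95% interval -1.01 to 0.41), so a larger effect in the knockout was not shown (limma, adjusted p = 0.953). Averaged over genotypes Nnmt fell by 0.79 (SE 0.166, 1.73-fold; limma, adjusted p = 0.00566), and this call held when any 1 of the 12 arrays was left out.

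Nnmt was also the member with the widest genotype difference, 0.60 higher in knockout than wild-type livers on the standard diet (SE 0.235, 95% interval 0.10 to 1.11, 1.52-fold), which did not pass (limma, adjusted p = 0.502). On the high-fat diet its knockout minus wild-type difference was 0.30 (SE 0.235, 95% interval -0.20 to 0.81). The genotypes overlapped on both diets.

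Both standard-diet knockout arrays with high Nnmt also stood apart in other genes. Array 1 had a mean of 11.61 over 23 acute-phase genes, against 10.15 to 10.64 on the other arrays; Saa2, a serum amyloid made in inflammation, read 13.33 there and 6.85 to 9.72 elsewhere. By group that mean spanned 10.31 to 10.64 in high-fat knockout, 10.22 to 10.46 in high-fat wild-type, 10.23 to 11.61 in standard-diet knockout and 10.15 to 10.21 in standard-diet wild-type livers. Array 1 also had the lowest mean of 15 male-biased liver genes (9.27) and the highest mean of 13 female-biased ones (7.26).

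Array 2 had a mean of 6.97 over 11 measured markers of fat, muscle and pancreas, against 6.04 to 6.24 on the other arrays. Acta1, the actin of skeletal muscle, read 9.80 there and 6.94 to 7.49 elsewhere, while Adipoq, the fat-cell hormone, read 4.23 on that array, at the 4.23 median of the chemosensory genes. By group this marker mean spanned 6.05 to 6.24 in high-fat knockout, 6.09 to 6.22 in high-fat wild-type, 6.06 to 6.97 in standard-diet knockout and 6.04 to 6.19 in standard-diet wild-type livers. Fibroblasts also make Nnmt. In standard-diet knockout livers the mean of 12 stellate cell and fibroblast markers was lowest on array 1 (7.59) and highest on array 2 (7.78). That mean was 7.63 to 7.69 in standard-diet wild-type, 7.60 to 7.78 in high-fat knockout and 7.765 to 7.927 in high-fat wild-type livers. The part of these markers in the Nnmt values was not tested.

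Without standard-diet knockout arrays 1 and 2, an omission chosen after the data were seen, the Nnmt genotype difference on the standard diet was 0.03. The diet difference was then -0.36 in the knockout and -0.50 averaged over genotypes, and neither was called. In that setting the standard-diet knockout group is 1 array, whose spread was taken to be that of the other groups. Diet calls over all genes were also fewer there, in the knockout and averaged over genotypes. The diet call within the knockout was also lost when standard-diet knockout array 1 or 2, or high-fat knockout array 1 or 2, was left out alone (limma, adjusted p = 0.0982, 0.132, 0.104 and 0.0799). In those fits 508, 528, 873 and 360 of all genes were called, against 1018 with all arrays.

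**Figure D2:**
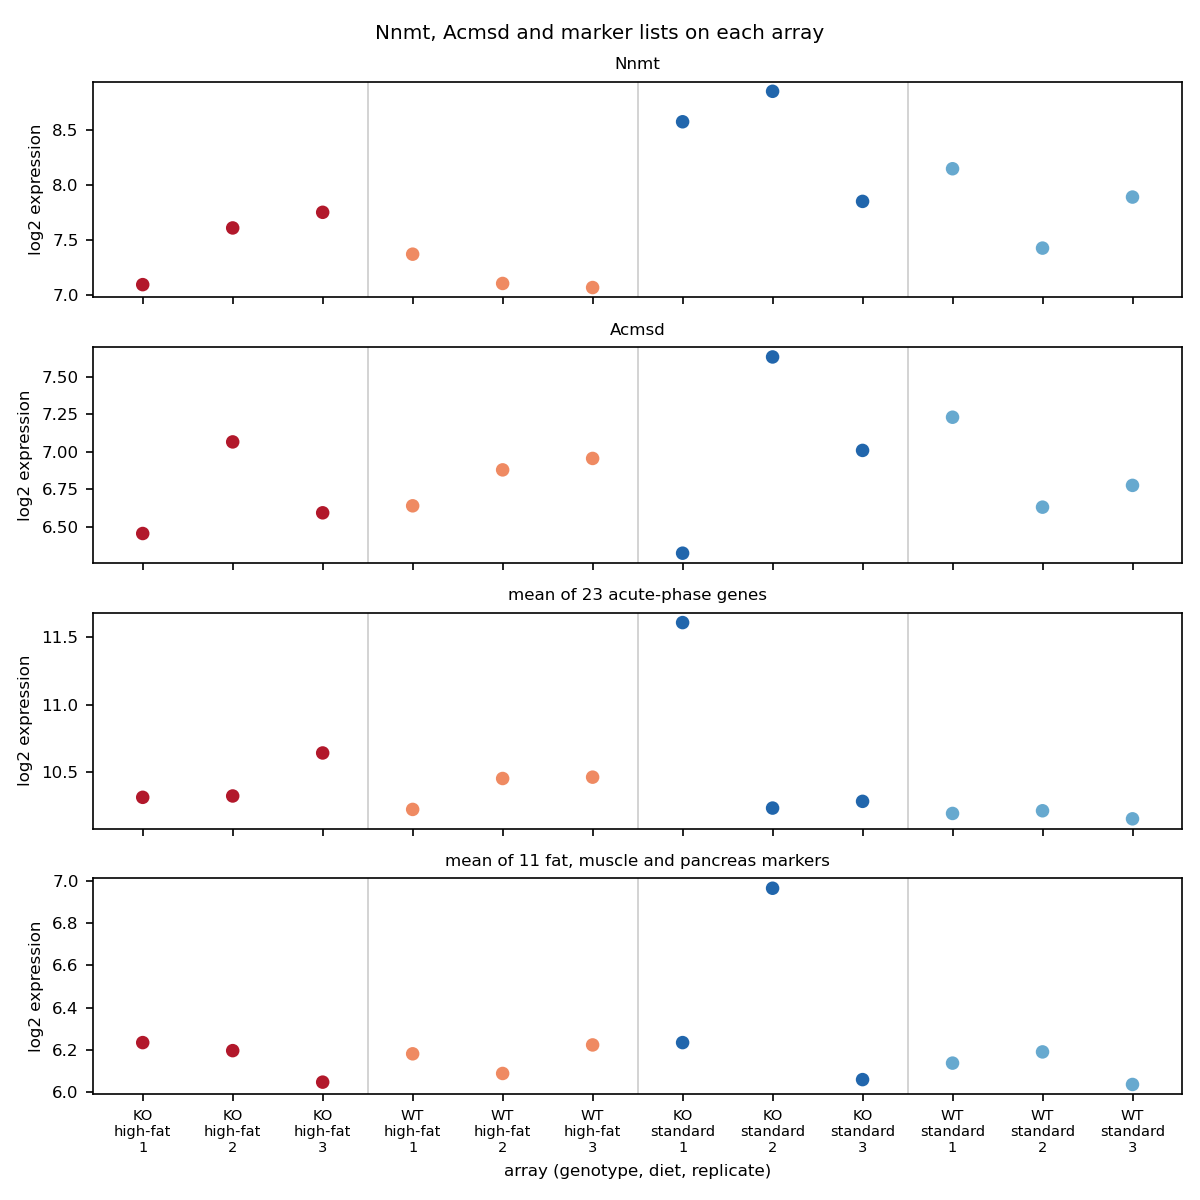
Log2 expression on each of the 12 arrays of Nnmt, of Acmsd, of the mean of 23 acute-phase genes and of the mean of 11 fat, muscle and pancreas markers, with knockout left of wild type within each diet. Standard-diet knockout array 1 is high in the acute-phase mean (11.61), array 2 is high in the fat, muscle and pancreas mean (6.97), and the same arrays hold the highest Nnmt values (8.57 and 8.85).

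The enzymes of the kynurenine pathway split into Haao, which passed in the diet comparison, and Acmsd and Qprt, which did not. Haao (probe set 10453260, chr17:83831348-83848981) makes the intermediate that leads to quinolinate. It measured 11.71, 11.80 and 11.83 in high-fat knockout livers, 11.69, 11.79 and 11.49 in high-fat wild-type livers, 11.60, 11.51 and 11.51 in standard-diet knockout livers, and 11.41, 11.39 and 11.52 in standard-diet wild-type livers. The diets did not overlap in the knockout and overlapped in the wild type, where high-fat array 3 lay below standard-diet array 3. The order of the means was high-fat knockout, high-fat wild type, standard-diet knockout, standard-diet wild type, each overlapping the next. High-fat knockout array 1 was the lowest of its group for Nampt, Nmnat1, Haao, Acmsd, Qprt, Nadsyn1, Nnmt and Nnt. Its means of the 9 genes (8.59) and of 8 hepatocyte markers (13.43) were the lowest of the 12 arrays. High-fat wild-type array 3 was the lowest of its group for Haao, Qprt, Nadsyn1, Nnt, Nnmt and Nmnat1, and the highest for Acmsd. It had the highest mean of 12 Kupffer cell and macrophage markers (8.69, against 8.04 to 8.38 on the other arrays). Its mean of 12 stellate cell and fibroblast markers was also the highest (7.93, against 7.59 to 7.78). The Kupffer and macrophage mean was 8.15 to 8.19 in high-fat knockout, 8.19 to 8.69 in high-fat wild-type, 8.04 to 8.38 in standard-diet knockout and 8.05 to 8.27 in standard-diet wild-type livers. Without high-fat wild-type array 3 the averaged diet differences were 0.27 for Haao, 0.23 for Nnt and -0.76 for Nnmt (limma, adjusted p = 0.00499, 0.0333 and 0.0133). In the wild type the Nnmt diet difference was then -0.58.

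Haao rose by 0.23 on the high-fat diet averaged over genotypes (SE 0.0599, 95% interval 0.10 to 0.35, 1.17-fold; limma, adjusted p = 0.0181). The differences within genotypes were 0.24 in the knockout and 0.22 in the wild type, both with SE 0.0847, and neither passed (limma, adjusted p = 0.120 and 0.144). The averaged call was lost without standard-diet wild-type array 2 (limma, adjusted p = 0.0501) and when arrays were centred on their medians (0.19, adjusted p = 0.0726). Knockout and wild type differed in Haao by 0.12 on the high-fat and 0.10 on the standard diet, which did not pass.

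Acmsd (probe set 10349431, chr1:127729413-127767564) diverts the kynurenine intermediate away from quinolinate and so away from NAD. It measured 6.45, 7.06 and 6.59 in high-fat knockout livers, 6.64, 6.88 and 6.95 in high-fat wild-type livers, 6.32, 7.63 and 7.01 in standard-diet knockout livers, and 7.23, 6.63 and 6.77 in standard-diet wild-type livers. The highest and the lowest of the 12 values both came from standard-diet knockout livers. Its SD within groups was 0.405, higher than in 99.0% of all genes. Its diet difference averaged over genotypes was -0.17 (SE 0.182, 95% interval -0.56 to 0.22) and its genotype differences were -0.12 on the high-fat and 0.11 on the standard diet (SE 0.257), with 95% intervals of -0.67 to 0.43 and -0.44 to 0.66, so differences of that size were not detectable at this spread. The standard-diet genotype difference was 0.44 without knockout array 1 and -0.21 without knockout array 2.

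Qprt (probe set 10568169, chr7:127107770-127122029), which turns quinolinate into nicotinic acid mononucleotide, measured 10.21, 10.49 and 10.38 in high-fat knockout livers, 10.41, 10.51 and 10.22 in high-fat wild-type livers, 10.52, 10.55 and 10.41 in standard-diet knockout livers, and 10.38, 10.40 and 10.47 in standard-diet wild-type livers. All 4 groups overlapped. Its diet difference averaged over genotypes was -0.08 (SE 0.0658, 95% interval -0.23 to 0.06; limma, adjusted p = 0.401).

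Nadsyn1 (probe set 10569545, chr7:143795589-143822862), the NAD synthetase that completes both the de novo and the Preiss-Handler route, measured 7.93, 8.11 and 8.10 in high-fat knockout livers, 8.08, 8.16 and 7.83 in high-fat wild-type livers, 8.06, 8.18 and 8.03 in standard-diet knockout livers, and 8.16, 8.25 and 8.24 in standard-diet wild-type livers. In the wild type every high-fat array lay below every standard-diet array, narrowly so for the closest pair. The difference was -0.19 (SE 0.0976, 95% interval -0.40 to 0.02) and did not pass (limma, adjusted p = 0.261). Without high-fat wild-type array 3, the lowest of the 12, it was -0.10. In that comparison the groups of 4 of the 9 genes did not overlap, Nmnat3 and Nnt higher and Nadsyn1 and Nnmt lower, as in 30.3% of all genes, 19.4% higher and 10.9% lower. In the knockout they did not overlap in 2 of 9, Haao higher and Nnmt lower, as in 23.8% of all genes.

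Of the salvage enzymes, Nmnat3 passed in the diet comparison, and Nampt and Nmnat1 did not. Nampt (probe set 10395259, chr12:32820335-32853369) is the rate-limiting enzyme of salvage from nicotinamide. It measured 8.72, 9.33 and 9.38 in high-fat knockout livers, 8.70, 9.21 and 8.92 in high-fat wild-type livers, 8.71, 8.72 and 9.12 in standard-diet knockout livers, and 8.95, 9.15 and 8.93 in standard-diet wild-type livers. Array 1 was the lowest of both high-fat groups, and all 4 groups overlapped. The largest of its differences was that of diet in the knockout, 0.30 (SE 0.173, 95% interval -0.07 to 0.66), which did not pass (limma, adjusted p = 0.346). It moved with single arrays, to 0.51 without high-fat knockout array 1 and 0.18 without high-fat knockout array 3. The genotype differences were 0.20 on the high-fat and -0.16 on the standard diet, and the difference between them, 0.36 (SE 0.244), did not pass either (limma, adjusted p = 0.945). With 1 array left out the genotype difference was 0.08 to 0.41 on the high-fat diet, lowest without wild-type array 1 and highest without knockout array 1, and -0.29 to -0.09 on the standard diet, lowest without knockout array 3 and highest without wild-type array 2.

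Nampt is a known target of the circadian clock, and clock genes were read beside it. Averaged over genotypes 9 of 17 clock genes rose and 1 fell on the high-fat diet, where 10.3% of all genes were called higher and 7.69% lower, with a median difference of 0.55 against 0.01 over all genes. Bhlhe41, a repressor of the clock, rose by 1.30 (SE 0.0757), and Arntl, the activator also called Bmal1, fell by 1.13 (SE 0.142; limma, adjusted p = 2.17e-07 and 0.000198). Per2, a repressor, measured 7.42, 8.36 and 8.24 in high-fat knockout livers, 7.33, 7.68 and 7.67 in high-fat wild-type livers, 6.80, 7.35 and 7.36 in standard-diet knockout livers, and 7.03, 6.90 and 7.07 in standard-diet wild-type livers. Array 1 was the lowest for Per2 in both knockout groups and in high-fat wild type, as for Nampt. After each diet's mean was removed, the correlation of Nampt with the 17 clock genes over the 12 arrays ran from -0.608 (Nfil3) to 0.704 (Per2), so Per2 is the one picked for the highest r. It was -0.606 with Arntl, -0.279 with Cry1, -0.107 with Nr1d1, 0.0239 with Bhlhe41 and 0.143 with Clock. These are descriptions of arrays that share their runs. The hour of death is not given in the labels.

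Nmnat1 (probe set 10518679, chr4:149467569-149485210), the nuclear enzyme that joins the mononucleotide to ATP to form NAD, measured 7.51, 7.86 and 7.89 in high-fat knockout livers, 7.83, 7.84 and 7.70 in high-fat wild-type livers, 7.72, 7.86 and 7.79 in standard-diet knockout livers, and 7.79, 7.83 and 8.08 in standard-diet wild-type livers. The groups overlapped throughout, with means between 7.75 and 7.90. Its genotype differences were -0.04 on the high-fat and -0.11 on the standard diet, both with SE 0.112.

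Nmnat3 (probe set 10588028, chr9:98287433-98420533), described as the mitochondrial form of that enzyme, measured 7.16, 7.16 and 7.13 in high-fat knockout livers, 7.17, 7.30 and 7.18 in high-fat wild-type livers, 7.02, 7.17 and 6.79 in standard-diet knockout livers, and 6.85, 6.94 and 6.98 in standard-diet wild-type livers. In the wild type all high-fat arrays lay above all standard-diet arrays, and in the knockout standard-diet array 2 lay above the high-fat arrays. Nmnat3 rose by 0.22 on the high-fat diet averaged over genotypes (SE 0.0702, 95% interval 0.07 to 0.37, 1.17-fold; limma, adjusted p = 0.0414). This call held in 1 of 12 omissions of a single array, that of standard-diet knockout array 2, with adjusted p = 0.0524 to 0.0948 in the other 11. The call was also lost with quantile normalization (0.18, adjusted p = 0.0522), with median centring (0.19, adjusted p = 0.0650) and with the replicate number as a block (adjusted p = 0.0665). On the high-fat diet all knockout values were under all wild-type values, the 1 of 9 genes whose genotypes did not overlap there, as in 6.68% of all genes; the difference was -0.06 (SE 0.0993). On the standard diet the genotypes overlapped in all 9, while in 14.4% of all genes they did not.

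The RefSeq promoter windows of Haao and Nmnat3, each called higher on the high-fat diet averaged over genotypes, and of Nampt are shown because they differ in base composition. A window holds 250 bases before and 50 after an annotated start in GRCm38.p6, and capitals mark CpG dinucleotides. The Haao window lies at chr17:83846741-83847040 on the minus strand, the Nmnat3 window at chr9:98296320-98296619 and the Nampt window at chr12:32820085-32820384, both on the plus strand. The Nampt window spans the outer start of its gene, while those of Haao and Nmnat3 lie inside their gene spans, at inner annotated starts.
Haao: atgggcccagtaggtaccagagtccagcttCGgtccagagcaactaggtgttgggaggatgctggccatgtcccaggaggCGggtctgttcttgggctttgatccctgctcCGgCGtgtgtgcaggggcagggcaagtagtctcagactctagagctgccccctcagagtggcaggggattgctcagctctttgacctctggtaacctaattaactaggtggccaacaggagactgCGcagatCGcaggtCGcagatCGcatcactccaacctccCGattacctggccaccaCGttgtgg
Nmnat3: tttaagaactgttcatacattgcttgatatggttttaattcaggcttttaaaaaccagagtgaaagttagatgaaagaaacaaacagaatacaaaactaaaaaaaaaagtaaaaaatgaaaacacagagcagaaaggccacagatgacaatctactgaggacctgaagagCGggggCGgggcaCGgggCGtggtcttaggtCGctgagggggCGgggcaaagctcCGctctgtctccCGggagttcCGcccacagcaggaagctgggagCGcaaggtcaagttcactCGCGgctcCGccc
Nampt: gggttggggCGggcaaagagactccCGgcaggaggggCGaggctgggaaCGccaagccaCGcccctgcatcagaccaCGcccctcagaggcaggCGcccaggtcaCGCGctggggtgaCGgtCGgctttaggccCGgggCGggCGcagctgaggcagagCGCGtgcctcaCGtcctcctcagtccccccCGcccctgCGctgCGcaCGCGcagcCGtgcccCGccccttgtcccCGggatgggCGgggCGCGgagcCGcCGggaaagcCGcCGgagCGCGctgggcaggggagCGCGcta
The Haao window held 10 CpG dinucleotides at 58.7% GC, the Nmnat3 window 13 at 49% and the Nampt window 36 at 76.3%, against medians of 7 and 52.7% over 32851 windows. Windows were found for 7 of the 9 genes, 8 windows in all. Motifs were searched on both strands: the E-box CACGTG of the clock activators, the D-box TTATGTAA of Dbp and its relatives, the FOXO motif GTAAACA and the HNF4 motif CAAAGTCCA. None of the 8 windows held these letters, which 7.15%, 0.938%, 3.65% and 0.475% of all windows hold.

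Nnt (probe set 10412394, chr13:119335527-119409257) is the transhydrogenase of the inner mitochondrial membrane, which uses the proton gradient to make NADPH from NADH. Mice of the C57BL/6J strain carry a deletion in it, and the 129Sv mice used here are of another strain. It measured 10.49, 10.69 and 10.71 in high-fat knockout livers, 10.69, 10.76 and 10.60 in high-fat wild-type livers, 10.57, 10.36 and 10.45 in standard-diet knockout livers, and 10.28, 10.52 and 10.49 in standard-diet wild-type livers. The 12 values spanned 0.480, and no array stood low. Nnt rose by 0.21 on the high-fat diet averaged over genotypes (SE 0.0663, 95% interval 0.07 to 0.35, 1.16-fold; limma, adjusted p = 0.0400). This call held without standard-diet wild-type array 2, standard-diet knockout array 1, high-fat wild-type array 3 or high-fat knockout array 1. It was lost in the other 8 omissions of a single array (adjusted p = 0.0561 to 0.105), with median centring (0.18, adjusted p = 0.137) and without the intensity trend (adjusted p = 0.0534). With the replicate number as a block it was lost too (adjusted p = 0.0754). Its genotype differences were -0.05 on the high-fat and 0.03 on the standard diet, both with SE 0.0938.

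**Figure D3:**
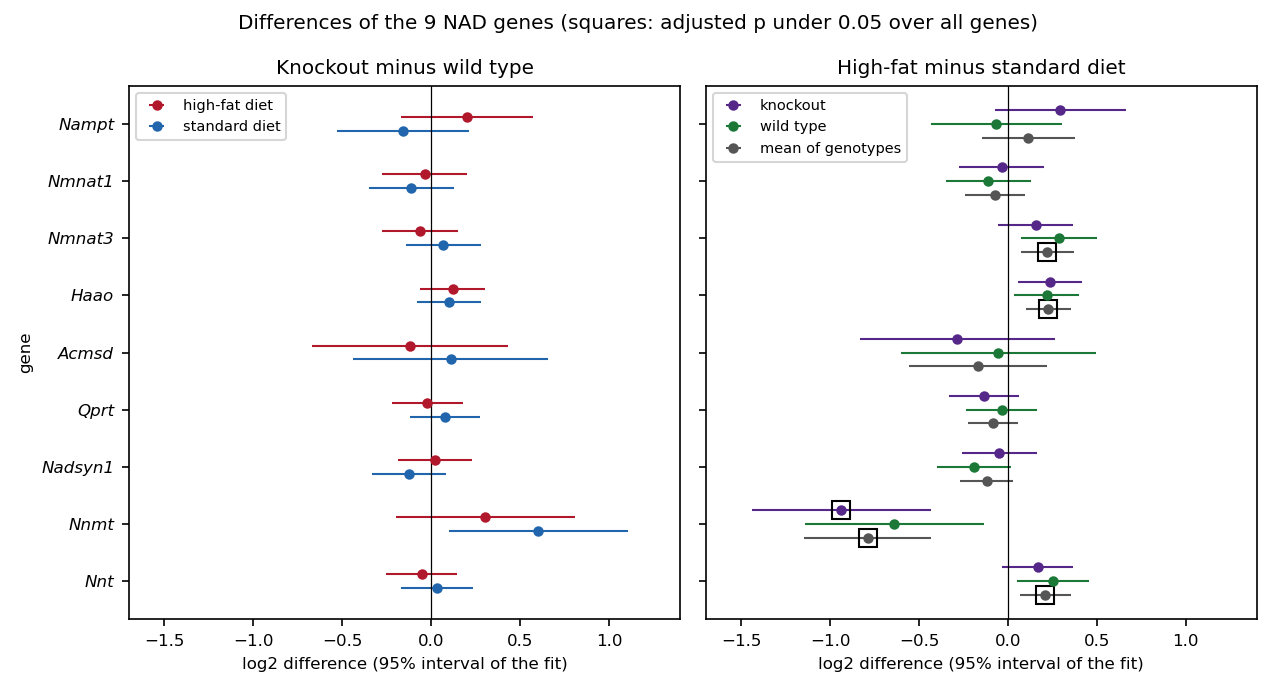
Log2 differences of the 9 genes with 95% intervals of the limma fit, knockout minus wild type on the left and high-fat minus standard diet on the right, where squares mark an adjusted p under 0.05 over all genes. No genotype difference is marked, while Nnmt is marked in the knockout (-0.94) and in the mean of genotypes (-0.79), and Haao, Nmnat3 and Nnt are marked in the mean.

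The effect of diet was not shown to depend on genotype for any of the 9 genes. The interaction gave 0 of 9 calls by limma, against 0% of all genes, and 0 of 9 with an unadjusted p under 0.05, against 4.73%. Its median over the 9 genes was -0.09, beside -0.05 over all genes, with a median SE of 0.161 over all genes. The median genotype difference of the 9 was -0.02 on the high-fat diet (all genes -0.02) and 0.07 on the standard diet (all genes 0.04). The median diet difference averaged over genotypes was -0.07 for the 9 genes and 0.01 for all genes.

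Around these 9 genes, the rest of the pathway was read from lists of NAD genes. No list had a call in a genotype comparison or the interaction by limma. An unadjusted p under 0.05 for genotype was reached by 2.86% of all genes on the high-fat diet. There it was reached by 2 of 14 de novo genes, 1 of 13 salvage genes and 1 of 7 sirtuins. That sirtuin was Sirt3, the targeted gene. On the standard diet it was reached by 1 of 6 clearance genes, Nnmt, against 9.73% of all genes. Averaged over diets it was reached by 3 of 14 de novo genes, 1 of 7 sirtuins, again Sirt3, and 1 of 6 clearance genes. The share of all genes was 6.64%. In the interaction it was reached by 1 of 13 salvage genes, against 4.73% of all genes. The remaining counts of the NAD lists in these comparisons were 0. In the diet comparison averaged over genotypes, 2 of 14 de novo genes rose and 1 fell, where 18% of all genes were called, 10.3% higher and 7.69% lower. Called shares of the NAD lists below are to be read against these. Afmid, the kynurenine formamidase, measured 10.28, 10.50 and 10.51 in high-fat knockout livers, 10.00, 10.13 and 10.09 in high-fat wild-type livers, 9.61, 10.14 and 9.94 in standard-diet knockout livers, and 9.78, 9.66 and 9.92 in standard-diet wild-type livers. High-fat arrays lay above standard-diet arrays in each genotype, and the averaged rise was 0.41 (SE 0.0853; limma, adjusted p = 0.00524). Kynu, the kynureninase between Afmid and Haao, fell by 0.21 (SE 0.0655; limma, adjusted p = 0.0413), a call kept in 2 of 12 omissions of a single array (highest adjusted p = 0.103). The median over the 14 genes was -0.10.

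Of 13 salvage and Preiss-Handler genes, 2 rose and 1 fell, against 10.3% and 7.69% of all genes. Nmrk1, the nicotinamide riboside kinase, measured 8.20, 8.98 and 9.47 in high-fat knockout livers, 8.28, 8.46 and 8.19 in high-fat wild-type livers, 7.93, 7.50 and 7.77 in standard-diet knockout livers, and 7.74, 7.81 and 8.07 in standard-diet wild-type livers. High-fat arrays lay above standard-diet arrays in each genotype. In the knockout Nmrk1 rose by 1.15 (SE 0.228, 2.22-fold; limma, adjusted p = 0.0118), a call lost without high-fat knockout array 2 (adjusted p = 0.0521), and in the wild type the difference was 0.44 (SE 0.228; limma, adjusted p = 0.274). The difference between genotypes in this diet effect, 0.71, did not pass (limma, adjusted p = 0.945). Averaged over genotypes the rise was 0.79 (SE 0.161, 1.73-fold; limma, adjusted p = 0.00451) and held in 12 of 12 omissions of a single array.

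Nt5c2, a cytosolic nucleotidase, measured 8.22, 8.28 and 8.38 in high-fat knockout livers, 8.52, 8.64 and 8.15 in high-fat wild-type livers, 8.77, 8.85 and 8.80 in standard-diet knockout livers, and 8.82, 8.71 and 8.82 in standard-diet wild-type livers. All high-fat arrays lay below all standard-diet arrays. It fell by 0.43 averaged over genotypes (SE 0.0769; limma, adjusted p = 0.00207) and by 0.51 in the knockout (SE 0.109; limma, adjusted p = 0.0164). The knockout call was lost without standard-diet or high-fat knockout array 2 (adjusted p = 0.0567 and 0.0633).

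In nicotinamide clearance and methyl supply, 1 of 6 genes rose and 1, Nnmt, fell, against 10.3% and 7.69% of all genes. Aox3, an aldehyde oxidase, a family that can oxidise methylnicotinamide, rose by 0.59 averaged over genotypes (SE 0.135, 1.51-fold; limma, adjusted p = 0.00839), opposite in direction to Nnmt. Within the knockout it rose by 0.70 (SE 0.190; limma, adjusted p = 0.0486), a call kept in 3 of 12 omissions of a single array. Without standard-diet knockout arrays 1 and 2, which leaves 1 array in that group, the averaged difference was 0.40 and was not called.

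Of 11 genes of NADP and mitochondrial NAD handling, Nnt rose and 3 dehydrogenases fell, where 10.3% of all genes rose and 7.69% fell: Idh1, the cytosolic isocitrate dehydrogenase (-0.30, SE 0.0859), Glud1, glutamate dehydrogenase (-0.20, SE 0.0615), and Pgd of the pentose phosphate pathway (-0.20, SE 0.0644; limma, adjusted p = 0.0282, 0.0373 and 0.0463). The median of the 11 was -0.03. Of the NAD consumers, 2 of 7 sirtuins rose and 0 fell, against the same shares, the mitochondrial Sirt5 by 0.36 (SE 0.0867) and Sirt4 by 0.21 (SE 0.0697; limma, adjusted p = 0.0115 and 0.0488). Of 18 PARPs, tankyrases, NAD glycohydrolases and related enzymes 5 rose and 1 fell, where 10.3% of all genes rose and 7.69% fell, among them Parp12 by 0.30, Parp3 by 0.21 and Parp1 by 0.19, and Parp11 fell by 0.25 (limma, adjusted p = 0.00559, 0.0318, 0.0329 and 0.0409). Their median difference was 0.16, against 0.01 over all genes, and 13 of the 18 lay above 0, as did 53.5% of all genes. Sirt5 and Parp12 kept their averaged calls in 12 of 12 omissions of a single array, while Idh1 kept it in 7, Parp3 in 5, Glud1 and Parp1 in 4, Parp11 in 3, Pgd in 2 and Sirt4 in 1. None of the calls in these NAD lists held with the variance for the offset between runs (limma, lowest adjusted p = 0.831). That setting left 9 of 19938 genes called averaged over genotypes, 7 in the wild type and 5 in the knockout.

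**Figure D4:**
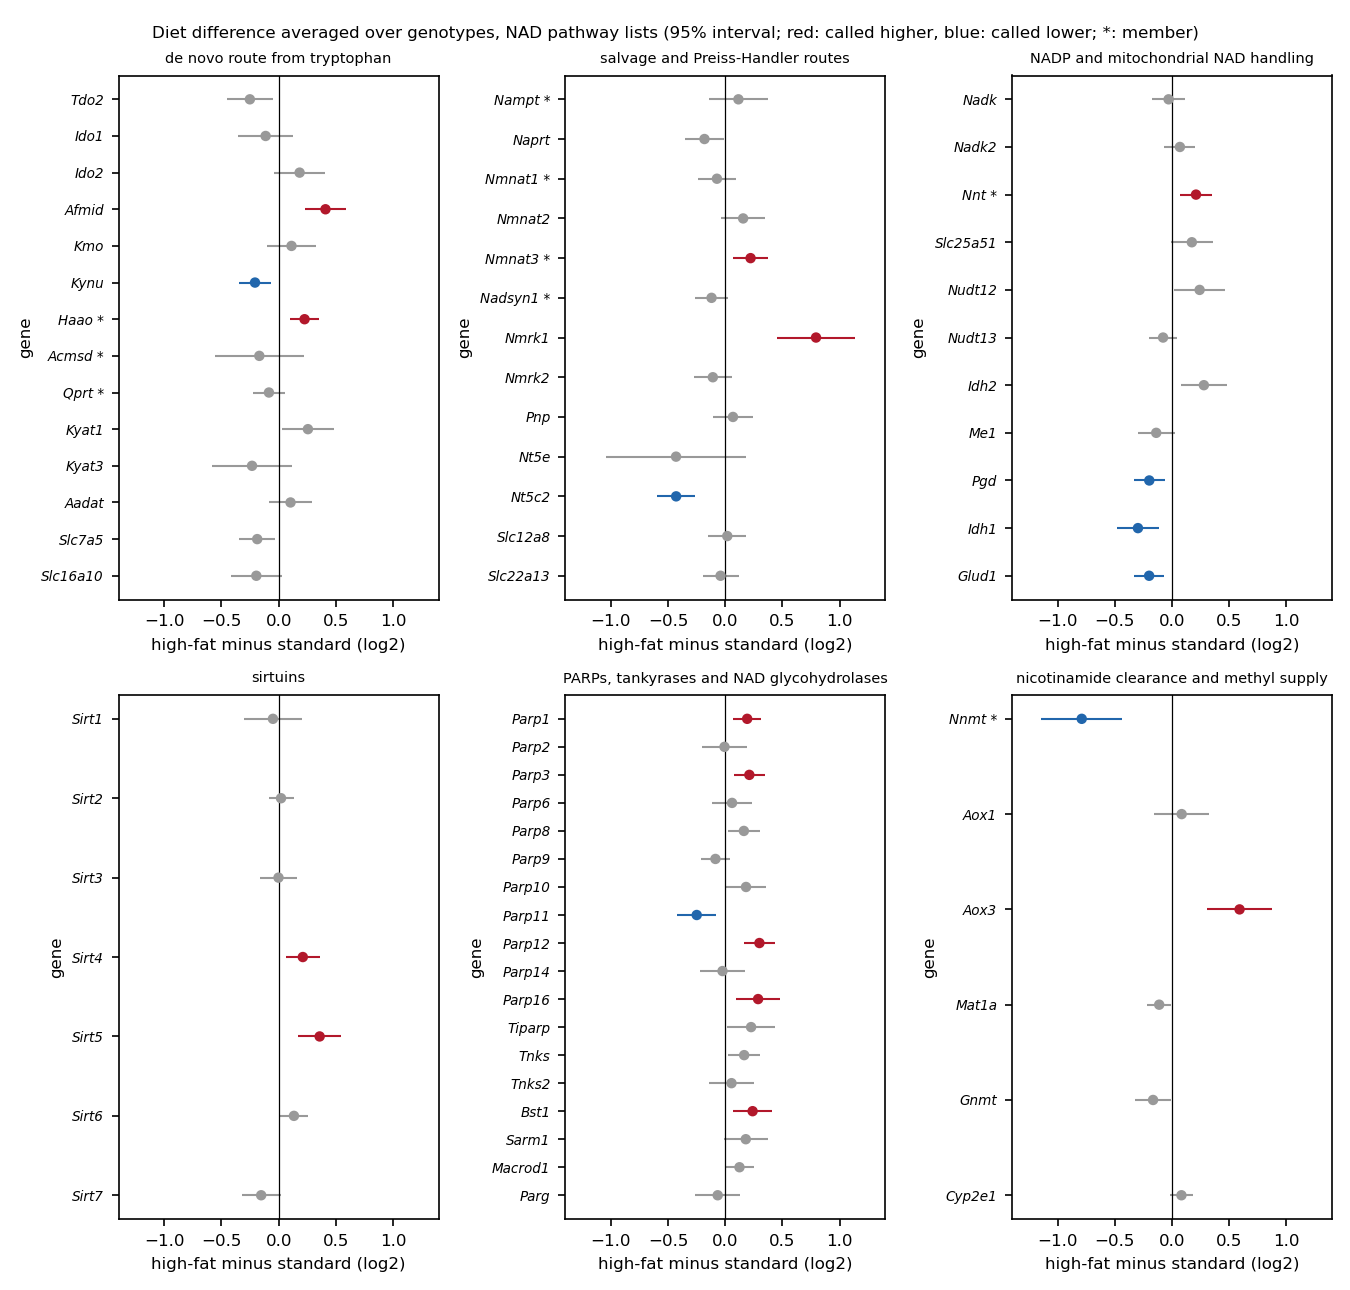
High-fat minus standard diet difference averaged over genotypes, in log2 units, for the genes of 6 NAD pathway lists, with 95% intervals of the limma fit. Red marks genes called higher, blue genes called lower and grey genes not called, and an asterisk marks the 9 genes; Nmrk1 (0.79) and Nnmt (-0.79) lie farthest from 0.

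The 9 genes differed in how much they varied among arrays of 1 group and in which genes they followed. The SD within groups was 0.369 for Nnmt and 0.261 for Nampt, each, like that of Acmsd, above that of at least 94.99% of all genes, and 0.0932 to 0.141 for the others, where the median of all genes was 0.140. Among the 9, Nmnat1 and Nadsyn1 had the highest correlation over the 12 arrays once diet means were removed (r = 0.727), followed by Qprt and Haao (0.712), and Acmsd and Nnt the lowest (-0.446). The arrays share their normalization run and any difference in RNA quality, so these are descriptions. They include high-fat knockout array 1, the lowest of its group for most of the 9 genes.

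Of 17029 genes ranked by the same measure, those closest to Nnmt were Tmem100 (r = 0.933) and Rnd2 (0.922), those closest to Nampt were Mmaa (0.914) and Aarsd1 (0.906), and those closest to Acmsd were Arrdc2 (0.935) and Spaar (0.898). Nmnat1 was closest to Mmachc (0.975), a cobalamin-handling gene, and Coq10a (0.936), Nmnat3 to Kazald1 (0.918) and Mtfp1 (0.893), and Haao to Gpr155 (0.944) and Ptdss1 (0.932). Qprt was closest to Sys1 (0.937) and Aplp2 (0.933), Nadsyn1 to Ccdc181 (0.891) and Gnpat (0.890), and Nnt to Jmjd8 (0.926) and Prkcsh (0.919). The top of so long a ranking is high by selection.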

How the data were processed

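Liver RNA of 12 mouse samples was hybridised to Affymetrix arrays. Per the submitters' processing notes, RMA and Affymetrix Expression Console were used, and the deposited values are log2 expression, 1 column per array. The version, options and arrays per run are not given in the sources used here. RMA corrects background, brings the arrays of a run to 1 distribution and summarises the probes of a set. A single gene symbol was paired with 21789 of 35557 probe sets, several with 1621, and 12147 went unnamed. Where a gene had several probe sets (999 genes), the brightest was kept, giving 19938 genes.

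The 4 group means were estimated together from the 12 arrays in R 4.3.3 using limma 3.58.1, its eBayes step following the intensity trend. There were 8 residual degrees of freedom, and 14.5 in total for the median gene. A gene was called where its p-value, adjusted by Benjamini and Hochberg across the whole table, fell under 0.05, in 7 comparisons. The text names the 9 genes, Sirt3, up to 4 called genes of each pathway list by smallest p, and the 2 genes most correlated with each of the 9. Named outside this rule, after their values were seen, were Per2, Saa2, Acta1 and Adipoq. Further clock genes were named only for their correlations with Nampt, also outside this rule. Members and lists were chosen with earlier results of these data known. The fit was tested on simulated data for knockout minus wild type on the standard diet with 19937 genes: it recovered 34.3% of 67 genes changed by 0.5 in log2 units, 98.5% of 67 changed by 1 and 100% of 66 changed by 2. Precision is limited by the 3 arrays per group. Alternatives, 25 settings, covered moderation, normalization, probe choice, thresholds and arrays left out. Listed genes without a usable probe set, such as Cd38, G6pdx and Mat2a, were not analysed here.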

Additional observations from a re-analysis of the deposited data

How the results depend on the processing

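The 7 counts of called genes were recomputed under 25 other settings. Those of both genotype comparisons within a diet, of their mean and of the interaction stayed at 0 of 9 under each setting that was run. For the diet comparison averaged over genotypes (4 of 9), the count was 2 with the replicate number as a block, 1 with median centring, 3 without the intensity trend (Nnt lost), with quantile normalization (Nmnat3 lost) and without standard-diet knockout array 1 and high-fat wild-type array 3 (Nmnat3 lost), 0 with the variance for the offset between runs, 1 without standard-diet knockout arrays 1 and 2, and 2 to 3 when 1 array was left out. For diet in the knockout (1 of 9), it was 0 with robust moderation, with a fit of the compared groups only, with the replicate block (Nnmt adjusted p = 0.0506 by limma), with the variance for the offset, and without standard-diet knockout array 1 together with high-fat wild-type array 3 or with standard-diet knockout array 2. It was 2 with quantile normalization and 0 to 1 when 1 array was left out. Calls over all genes in the knockout were 1018 as reported and 1056 with robust moderation. They were 381 with the compared groups only, 876 with the replicate block and 1532 with quantile normalization. With the variance for the offset 5 genes were called. Without standard-diet knockout array 1 and high-fat wild-type array 3 it was 625, and 360 to 1286 with 1 array left out. For diet in the wild type (0 of 9), the count was 1 in the fit of the compared groups and 2 with quantile normalization. It was 1 without standard-diet knockout array 1 and high-fat wild-type array 3, and 0 when 1 array was left out. All-gene calls there were 1194 as reported, 1280 in the fit of the compared groups and 1223 with quantile normalization. They were 389 to 1322 with 1 array left out. Averaged over genotypes all-gene calls were 3582 as reported, 3241 with the replicate block and 3498 with median centring. They were 4156 with quantile normalization, 9 with the variance for the offset and 2644 to 3519 with 1 array left out. The omission of standard-diet knockout arrays 1 and 2 left 1 array in that group. All-gene diet calls were fewer there, in the knockout and averaged over genotypes. This omission was chosen after the data were seen, as was that of the other pair for the counts of called members. Of 1512 differences of single members under the alternatives, 75 changed sign, none of them a called one, and the largest of these was 0.30 in size as reported. Deviations of same-numbered knockout and wild-type arrays correlated with r = 0.0506, 0.0149 and 0.288 in standard-diet livers. Arrays with different numbers gave r from -0.217 to 0.164 there. Among high-fat livers the same-numbered r were 0.174, 0.0595 and -0.212, and different numbers gave -0.334 to 0.329. With 3 same-numbered pairs per diet, these r cannot decide whether the replicate numbers pair the samples. Why calls were lost was not tested. With 3 arrays a group the median SE within a diet or genotype was 0.114. Differences near 0.5 were often missed on data simulated for knockout minus wild type on the standard diet. No diet comparison was simulated.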

Other observations

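Averaged over genotypes, 2 of 14 genes of fasting and PPAR-alpha rose on the high-fat diet and 3 fell, where 10.3% of all genes rose and 7.69% fell. The median difference of the 14 was -0.08, beside 0.01 over all genes. Pdk4, the kinase that restrains pyruvate oxidation, fell by 1.27 (SE 0.237), Igfbp1, a binding protein of insulin-like growth factors that is high in fasting, fell by 1.27 (SE 0.265), and Angptl4, an inhibitor of lipoprotein lipase, fell by 0.54 (SE 0.149; limma, adjusted p = 0.00258, 0.00540 and 0.0226). Ppara itself rose by 0.36 (SE 0.0855; limma, adjusted p = 0.00988). The limit from separate normalization runs holds here too.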
